A study of Mus musculus with 113 samples.

Results

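*Obox1*, *Obox2*, *Obox3*, *Obox5* and *Obox6* are genes of the Obox (oocyte-specific homeobox) family, taken by name, and make up 5 of the 24006 genes in the deposited expression files. All 5 had a listed value, in some cases 0, in each of the 92 RNA-seq libraries. The libraries came from mouse 2-cell (2C), 4-cell (4C) and 8-cell (8C) embryos, prepared with Smart-seq2, which copies whole transcripts from very little RNA. The study asked what the nuclear receptor NR5A2 does in these stages, and lowered or edited *Nr5a2* by siRNA knockdown (KD) or by base editing.

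All embryos were labelled wild type and came from superovulated females; the methods name 5- to 6-week-old C57BL/6N females (C57BL/6J where the purchase is described) mated to PWK/PhJ males. The KD and negative control (NC) libraries were pools of 5 to 10 embryos, with 2 pools in each of 16 groups. In the 4KD experiment, 4C and 8C embryos received siRNAs against *Nr5a2*, *Rarg*, *Nr1h3* and *Nr2c2* at 5 µM each, or NC siRNA at 20 µM. In the 3KD experiment, 8C embryos received the siRNAs against 3 of these 4 genes, or NC siRNA at 15 µM. In the single KD experiment, 8C embryos received the siRNAs against 1 gene or NC siRNA, at 5 µM. Each gene was targeted by several siRNAs, and the 5 µM per gene is their sum. In the 2C experiment, embryos received *Nr5a2* or NC siRNA at 20 µM. The other 60 libraries were single embryos at 2C or 8C, injected with base editor mRNA (BE), with *Nr5a2* sgRNA, or with both, each at 100 ng/µl; per stage there were 8, 8 and 14 embryos. BE and sgRNA embryos carried an injection but not the pair needed for editing, and served as controls. An edited embryo can hold edited and unedited cells, and a KD pool averages its embryos. The labels do not say whether libraries of a group came from separate collections, so p-values measure the spread between these libraries only.

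Homeobox genes encode proteins with a homeodomain, a fold that binds DNA. The mouse Obox genes lie in a cluster on chromosome 7 and are known from oocytes and the first cleavage stages. The oocyte loads the egg with maternal RNA, which is largely cleared around the time when the embryo switches on its own genome, a step called zygotic genome activation (ZGA) that has its main wave at the 2C stage in mice. *Obox1*, *Obox2* and *Obox5* are known as maternal members of the family, *Obox3* as a member switched on at ZGA, and *Obox6* as a member that persists in cleavage embryos and has been used as a reprogramming factor.

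Some of the genes share stretches of sequence, *Obox1* and *Obox2* the most, which bears on how far their reads can be told apart. The RefSeq promoter table (GRCm38.p6) holds 4 of the 5 members; it has no entry for *Obox6*. In *Obox2* a 25-base run shared with other members starts at base -1 from the RefSeq start, so its stretch is not printed. Below are the 120 bases before the RefSeq transcription start of *Obox1*, *Obox5* and *Obox3*. They share this run, in capitals, and belong to genes that are high in 2C embryos and low in 8C embryos.
Obox1: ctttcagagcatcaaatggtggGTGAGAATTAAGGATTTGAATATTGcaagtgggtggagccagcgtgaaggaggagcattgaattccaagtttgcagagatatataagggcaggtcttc
Obox5: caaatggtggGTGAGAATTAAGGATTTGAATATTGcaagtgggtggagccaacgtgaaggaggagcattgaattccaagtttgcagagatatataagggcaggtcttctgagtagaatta
Obox3: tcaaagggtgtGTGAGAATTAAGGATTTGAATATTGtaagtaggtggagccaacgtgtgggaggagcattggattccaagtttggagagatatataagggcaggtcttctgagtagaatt
By exact match to mm9, the *Obox5* sequence lies at chr7:16335599-16335718 on the plus strand and the *Obox3* sequence at chr7:16225127-16225246 on the minus strand. Both lie inside the spans given below for these genes in the GENCODE M1 annotation, and so not upstream of those gene models. The *Obox1* sequence matches at 2 places on the plus strand, chr7:16132486-16132605 inside *Obox1* and chr7:15974177-15974296 inside *Obox2*. The first of these also lies inside the annotated span of *Obox3*, which runs on the other strand.

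Lined up on the shared run, *Obox1* and *Obox5* were the same at 107 of 108 bases, *Obox5* and *Obox3* at 111 of 119, and *Obox1* and *Obox3* at 100 of 109. The RefSeq start of *Obox2* lies 97 bases upstream of the matching start of *Obox1*, and the overlapping 203 bases of both windows were identical. Of 32851 promoters of 300 bases in the table, 5 (0.0152%) held the run on either strand, and these were *Obox1*, *Obox2*, *Obox3*, *Obox5* and *Obox7*. The letters TATATAA, a form of a common core promoter element, were found on either strand in 3.24% of all promoters and in those of *Obox1*, *Obox3*, *Obox5* and *Obox7*. GGATTA, the core bound by homeodomains of the bicoid kind, was found in 7.06% of all promoters and in *Obox3* alone among these 5. AGGTCA, the core hexamer of nuclear receptor sites, was found in 16.3% of all promoters and in *Obox1*, *Obox2* and *Obox7*. CAAGGTCA, which contains that hexamer and is the longer form that NR5A2 binds, was found in 1.56% of all promoters and in none of the 5. These matches describe letters in a window and not binding.

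In the GENCODE M1 annotation of mm9, *Obox2* spans chr7:15939386-15983894, *Obox1* chr7:16097689-16142215 and *Obox5* chr7:16335483-16345149, all on the plus strand. *Obox3* spans chr7:16065174-16225251 and *Obox6* chr7:16418595-16425027, both on the minus strand. The longest transcript of each gene was divided into 50-base windows, and each window was looked for in the other Obox transcripts and elsewhere on chromosome 7. Every window of *Obox6* was found once, and so were 87.8% of the windows of *Obox5*. The share was 42.3% for *Obox3*, 38.7% for *Obox1* and 37.9% for *Obox2*. *Obox1* and *Obox2* shared 848 windows, 59.9% of those of *Obox1* and 60.1% of those of *Obox2*, so how their reads were split between them is uncertain. Only 8 or 9 windows were shared between *Obox3* and any of *Obox1*, *Obox2* and *Obox5*, so its repeated windows were mostly found outside these transcripts. RefSeq lists 47 Obox pseudogenes, of which 38 are named for *Obox4*, 8 for *Obox3* and 1 for *Obox6*, and 45 of the 47 lie on chromosome 7. Values of *Obox1*, *Obox2* and *Obox3* are therefore uncertain as values of single genes, and the span of *Obox3* overlaps that of *Obox1* on the other strand in a protocol that does not mark strand. The 1 pseudogene named for *Obox6* is not listed on chromosome 7, so the windows of *Obox6* were not looked for in it.

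**Figure D1:**
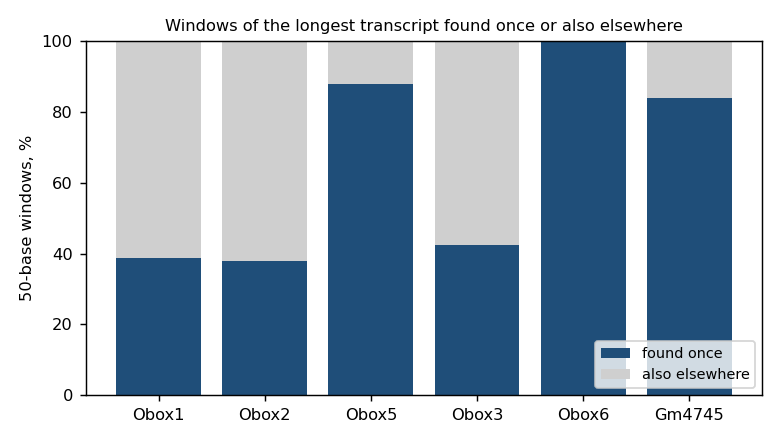
Share of the 50-base windows of the longest transcript (y axis, %) that were found once among the Obox transcripts and on chromosome 7 (dark) or also elsewhere (light), for the 5 members and for *Gm4745*. *Obox6* stands at 100%, and *Obox1*, *Obox2* and *Obox3* lie between 37.9% and 42.3%.

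The values are FPKM, fragment numbers scaled to transcript length and library size, so levels of different genes may be compared per length. The sum of FPKM ranged from 83392 to 556462, and between 5472 and 11921 genes had an FPKM of at least 1. The files hold no read counts. A relative depth, read from the steps between low FPKM values, ran from 0.363 to 1.52 and was lowest in the 4KD experiment (0.363 to 0.747). In the file columns of 3 single embryos the name gives the 4-cell stage against a sample label of 2C (sgRNA replicate 8) or 8C (BE + sgRNA replicates 13 and 14). Differences between groups that include them are also given without them. The other single embryos were sorted into what is called here an eBE and a BE4 run. Some column names give eBE or BE4, which are names of editors, and embryos without such a name were placed by library number. The sample labels name no run, and the methods describe 1 editor. Whether the runs differ in editor or in batch cannot be told apart. The summed FPKM of 4 fixed 2C markers was 118 to 443 in 2C pools and 0.387 to 57.6 in 8C pools, while single embryos ranged from 1.94 to 640 in 2C and reached 36.5 in 8C, so the stages overlapped there. In the 2C embryo named 4-cell it was 1.51, and the oocyte-deposited genes summed to 135 FPKM against 591 to 5608 in the other 2C embryos. The 8C embryos named 4-cell, left out of the range above, had 49.4 (replicate 13) and 8.84 (replicate 14) on the 2C markers. The summed FPKM of the 6 fixed 8C markers did not separate the stages, at 142 to 198 in 2C pools and 90.7 to 335 in 8C pools. These markers moved in different ways. In BE and sgRNA embryos *Tdgf1* had means of 1.18 and 1.35 FPKM at 2C and 109 and 71.7 at 8C. *Klf17* had 129 and 79.7 at 2C and 45.7 and 32.8 at 8C. The 8 markers of cumulus and granulosa cells summed to 3.37 to 4.66 FPKM in 2C pools, a median of 3.50 in single 2C embryos and at most 2.05 in 8C libraries, and the 4 sperm markers to at most 44.5 in any library. The part of these cells in the results was not tested. A lower FPKM in a whole embryo can mean fewer cells that hold the RNA or less of it per cell, and these cannot be told apart.

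From 2C to 8C, *Obox1*, *Obox2*, *Obox5* and *Obox3* fell in the single control embryos, and *Obox6* rose. *Obox3*, the ZGA member, went from a high level in most 2C embryos to 0 in most 8C embryos. In the 16 control embryos (8 BE and 8 sgRNA) at 2C, *Obox3* ran from 0.474 to 554 FPKM with a median of 61.4. In the 16 control embryos at 8C it was listed at 0 in 14, and the other 2 had 0.229 and 5.09 FPKM. The 2 ranges overlapped only through 1 embryo at 2C, an sgRNA embryo with 0.474 FPKM, and the sgRNA embryo named 4-cell with 1.38 FPKM. The difference was -5.45 ± 0.59 on the log2(FPKM + 1) scale (SE; adjusted p = 2.857e-12, limma across 12991 genes).

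The 3 maternal members fell as well, *Obox5* by the most and *Obox2* by the least. All 3 had medians under 1 FPKM at 8C, so the order of these falls follows the order of their levels at 2C. *Obox5* ran from 4.03 to 294 FPKM at 2C (median 58.7) and from 0 to 2.41 at 8C (median 0.479), so the ranges did not overlap. Its difference was -5.21 ± 0.36 (adjusted p = 2.235e-19). *Obox1* ran from 1.89 to 117 FPKM at 2C (median 28.8) and from 0 to 3.71 at 8C (median 0.811). The overlap came from 2 embryos at 2C, the one named 4-cell with 1.89 and another with 3.49, and the difference was -4.02 ± 0.35 (adjusted p = 1.781e-15). *Obox2* ran from 5.59 to 48.2 FPKM at 2C (median 18.9) and from 0.0965 to 1.69 at 8C (median 0.544), with no overlap and a difference of -3.39 ± 0.29 (adjusted p = 1.249e-15).

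*Obox6* went the other way. It ran from 14.7 to 634 FPKM at 2C (median 190) and from 112 to 999 at 8C (median 544), with a difference of 1.42 ± 0.46 (adjusted p = 0.005066). The ranges overlapped over most of their width. The eBE run gave a difference of 1.87. The BE4 run gave 0.64, which was not called (adjusted p = 0.5156). It held no sgRNA embryo at 2C, so BE embryos at 2C stood against the mean of BE and sgRNA at 8C. In that run *Obox6* had 39.7 to 465 FPKM in BE at 2C. At 8C it had 420 to 851 in BE and 112 to 156 in sgRNA. The part of this unlike mix of controls was not tested. Over all embryos the value was 0.39 after quantile normalization (adjusted p = 0.326). Of the 12991 genes tested 72.5% were called in this comparison and the median of all genes was -0.31, so the 5 of 5 members called stand against a background in which most genes changed. Without the 2C embryo named 4-cell the differences were -5.68 for *Obox3*, -5.46 for *Obox5*, -4.24 for *Obox1*, -3.49 for *Obox2* and 1.44 for *Obox6*, all called. The 4 falls held in all 13 alternative settings, over which *Obox3* ran from -8.34 to -5.22, *Obox5* from -6.95 to -4.68, *Obox1* from -5.54 to -3.83 and *Obox2* from -4.54 to -3.17.

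**Figure D2:**
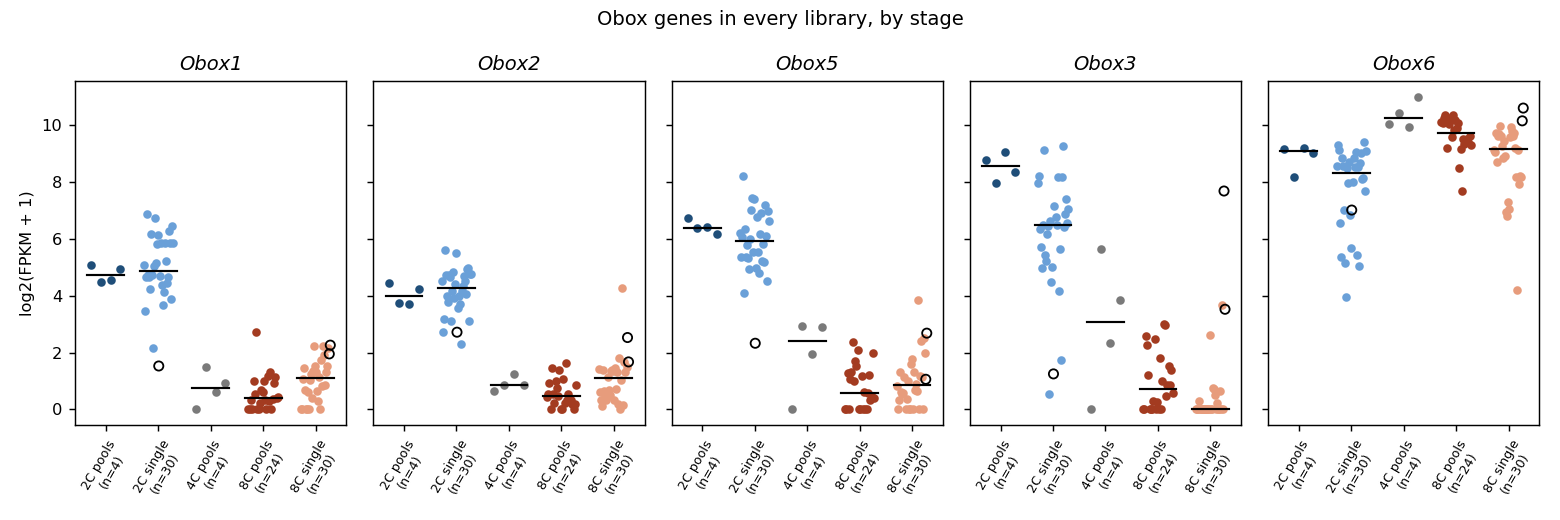
Level of each member in every library as log2(FPKM + 1), by stage and kind of library; each point is 1 library, the bar is the median, and open circles are the 3 libraries whose column name gives the 4-cell stage. *Obox1*, *Obox2*, *Obox5* and *Obox3* are mostly high in 2C and mostly low from 4C on. *Obox3* also reaches 49.7 FPKM in a 4C pool and 205 in an 8C embryo named 4-cell, and falls to 0.474 in a 2C embryo. *Obox6* is found in every library, at 14.7 to 2056 FPKM.

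In the NC pools the 4 falling members were again high at 2C and low at 8C, and the 4C pools were low or divided. *Obox3* had 247 and 438 FPKM in the 2C NC pools, 49.7 and 0 in the 4C NC pools, and 0 to 1.30 in the 6 8C NC pools. *Obox5* had 82.2 and 107 FPKM at 2C, 6.74 and 0 at 4C, and 0 to 1.49 at 8C. The 2 4C pools thus differed from each other in both genes, with 1 pool listed at 0 in *Obox3*, *Obox5* and *Obox1*. *Obox1* had 21.5 and 33.3 FPKM at 2C, 1.85 and 0 at 4C, and 0 to 1.25 at 8C. *Obox2* had 12.3 and 21.1 FPKM at 2C, 0.585 and 0.831 at 4C, and 0.184 to 2.14 at 8C. *Obox6* had 289 and 577 FPKM at 2C, 1067 and 1395 at 4C, and 361 to 1217 at 8C, so that both 4C pools lay above both 2C pools.

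From the 2C to the 4C NC pools all 5 members were called, where 28.2% of 12181 genes were. The differences were -5.54 for *Obox3* (SE 1.36, adjusted p = 0.01309), -5.09 for *Obox5* (SE 0.79, adjusted p = 0.001899), -4.04 for *Obox1* (SE 0.60, adjusted p = 0.001611), -3.33 for *Obox2* (SE 0.57, adjusted p = 0.002675) and 1.58 for *Obox6* (SE 0.50, adjusted p = 0.03786). The *Obox6* call was lost in 11 of 12 alternatives, among them quantile normalization (0.43, adjusted p = 0.4491) and leaving out any 1 of the 4 pools (1.08 to 2.07, adjusted p 0.05255 to 0.2386), and the *Obox3* call in 5 of 12, among them leaving out either 2C pool (-5.12 without replicate 1, -5.95 without replicate 2). Leaving out a 4C pool moved the *Obox3* difference to -2.70 or -8.37, since 1 of these pools was listed at 0. From the 2C to the 8C NC pools, where 46.6% of genes were called, the differences were -8.00 for *Obox3*, -6.07 for *Obox5*, -4.34 for *Obox1* and -3.29 for *Obox2*, all called (adjusted p 8.183e-05 to 0.0003597). *Obox6* was not called there (0.88 ± 0.41, adjusted p = 0.09858). The 2C pools belong to an experiment of their own, so stage and experiment cannot be told apart in both comparisons of pools. Within the 4KD experiment, which holds 4C and 8C pools, no member was called between 4C and 8C in NC or in 4KD pools (adjusted p 0.687 to 0.967), where 0% of 10476 genes were called. At an unadjusted p under 0.05 there were 776 and 803 genes, and none of the members. *Obox1* had a mean FPKM under 1 in every group of that experiment and was not tested.

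At 2C the order of the levels was *Obox6* and *Obox3*, then *Obox5*, *Obox1* and *Obox2*. In the 4 2C pools *Obox6* (289 to 584 FPKM) and *Obox3* (247 to 531) overlapped, *Obox5* (71.7 to 107) lay apart from both, and *Obox1* (21.5 to 33.3) lay only just above *Obox2* (12.2 to 21.1). In single 2C embryos *Obox6* made up a median of 50.1% of the summed FPKM of the 5 members (11.6 to 76.1%, 29 embryos), and in single 8C embryos 99.5% (40.9 to 99.9%, 28 embryos), leaving out the 3 named 4-cell. *Obox6* was one of the most abundant RNAs in the embryo, at a median rank of 69 among 24006 genes in single 2C embryos and of 33.5 in the 4 4C pools. In the 4KD experiment, which holds both later stages, *Obox6* ran from 976 to 2056 FPKM in 4 4C pools and from 1094 to 1303 in 4 8C pools, so the 8C range lay inside that of 4C. Its 2C pools (289 to 584 FPKM) lay under all of these, in another experiment.

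*Gm4745*, a neighbour on chromosome 7 known as *Obox7*, was looked at after its values were seen. It had a median of 4.81 FPKM in the control embryos at 2C (0 to 19.7) and was listed at 0 in 14 of 16 at 8C. It fell by 2.47 on the log2 scale (SE 0.31, adjusted p = 3.858e-10). Since it started low, its fall on the log2(FPKM + 1) scale could hardly be larger, and it is not compared with those of the members.

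The genes most alike in pattern were found by the Pearson correlation of log2(mean FPKM + 1) over the 22 groups, among 9180 genes with a group mean of at least 5. These correlations are descriptions over groups that share stages and experiments. For *Obox5* they were led by *Oog1* (r = 0.985) and *Oog3* (r = 0.985), genes known as oogenesins from oocytes and early embryos, and for *Obox2* by *Tcl1b4* (r = 0.987). For *Obox1* the list was led by *Svip* (r = 0.986) and also held *Bmp5* and *Tgfb2*, and for *Obox3* by *Rab43* (r = 0.958) and *AU015228* (r = 0.958). *Obox6* was most like *Dppa4* (r = 0.959), a gene of pluripotent cells, followed by *Med6*, *Rnmt*, *Eif2b1* and *Polr1c*, which act in transcription, RNA capping, translation and RNA polymerase. Over the same groups, *Obox1*, *Obox2* and *Obox5* correlated with each other at 0.953 to 0.968 and with *Obox3* at 0.857 to 0.899, while *Obox6* ran against all 4 (-0.711 to -0.48).

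Fixed lists of other genes gave the setting from 2C to 8C in the control embryos. Of 18 genes of the 2C burst, such as the Zscan4 and Usp17l families, 17 fell and 1 rose, *Tdpoz2*, named here after its value was seen; the median was -3.64. *Tcstv1* fell by 5.11 and *Usp17lb* fell by 4.43. Of 15 oocyte-deposited genes 14 fell and 1 was not called, with a median of -3.58. *Oosp1*, encoding an oocyte-secreted protein, fell by 6.94 and *Bmp15*, encoding an oocyte growth factor, fell by 6.14. Of 15 other homeobox genes 5 rose, 6 fell and 4 were not called, with a median of -0.80. Among these *Crxos*, a homeobox gene of early embryos, rose by 2.97 and *Pou5f1*, the pluripotency factor OCT4, rose by 1.87, *Sebox* fell by 6.10, and *Cphx1* was not called (-1.10, adjusted p = 0.05388). The differences of *Obox1* (-4.02) and *Obox2* (-3.39) were near the medians of the burst and oocyte lists, and those of *Obox3* (-5.45) and *Obox5* (-5.21) were larger falls than either median. On the log2(FPKM + 1) scale the fall of a gene nearly absent at 8C depends on its 2C level, and these levels were not matched.

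Single embryos of one stage differed widely in the members, and at 2C the differences followed 2 patterns. Leaving out the 2C embryo named 4-cell, 20 relations were computed over 29 embryos on the log2(FPKM + 1) scale, with 100000 permutations each and Benjamini-Hochberg adjustment over the 20. *Obox1* and *Obox2* were related (r = 0.798, adjusted p = 5e-05; rho = 0.839, adjusted p = 5e-05). These 2 genes share 848 windows, and the part of those reads in the relation was not tested. *Obox1* and *Obox5*, which share 32 windows, also did (r = 0.713, adjusted p = 8e-05; rho = 0.7, adjusted p = 0.000133), and *Obox2* and *Obox5* less closely (r = 0.566, adjusted p = 0.00355; rho = 0.544, adjusted p = 0.00615). Within the 17 embryos of the eBE run r was 0.864, 0.786 and 0.708 for these 3 pairs, and it was 0.596, 0.477 and 0.177 within the 12 of the BE4 run. Leaving out the 2 embryos farthest from the median of the x axis gave 0.771, 0.675 and 0.527.

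*Obox3* and *Obox6* formed the second pattern. They correlated with each other at r = 0.572 (adjusted p = 0.00355; rho = 0.744, adjusted p = 8e-05; 0.688 without the 2 farthest embryos; 0.39 in the eBE run and 0.832 in the BE4 run). The relations of *Obox3* to 2 of the maternal members were negative, with r of -0.395 to *Obox1* (adjusted p = 0.0613; rho = -0.411, adjusted p = 0.0488) and -0.429 to *Obox2* (adjusted p = 0.0464; rho = -0.448, adjusted p = 0.0313). The 2 embryos farthest from the *Obox2* median moved that r to -0.338. *Obox6* and *Obox2* had a rho of -0.485 (adjusted p = 0.0183) and an r of -0.357 (adjusted p = 0.0954, -0.262 without the 2 farthest). No other pair of *Obox3* or *Obox6* with a maternal member had an adjusted p under 0.05 by r or rho. At 2C *Nr5a2* itself followed *Obox6* (r = 0.851, adjusted p = 5e-05; rho = 0.887, adjusted p = 5e-05; 0.819 without the 2 farthest; 0.782 and 0.962 within the runs) and *Obox3* (r = 0.741, adjusted p = 5e-05; rho = 0.804, adjusted p = 5e-05; 0.749 without the 2 farthest; 0.704 and 0.799 within the runs). The raw p of 1e-05 behind each 5e-05 is the smallest that 100000 permutations can give.

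The summed FPKM of the library moved with these values. It correlated with *Obox6* at r = 0.895 (adjusted p = 5e-05; rho = 0.822, adjusted p = 5e-05; 0.845 without the 2 farthest) and with *Obox3* at r = 0.565 (adjusted p = 0.00355; rho = 0.694, adjusted p = 0.000229; 0.646 without the 2 farthest). With the summed FPKM held fixed, the partial correlation of *Nr5a2* was 0.299 with *Obox6* and 0.624 with *Obox3*, and that of *Obox3* with *Obox6* was 0.18. Those of the maternal pairs were 0.839, 0.708 and 0.645. With *Obox1*, *Obox2* and *Obox5* in turn, they were -0.553, -0.602 and -0.317 for *Nr5a2*. For *Obox3* they were -0.586, -0.421 and -0.46, and for *Obox6* -0.172, -0.502 and -0.338. The part of the summed FPKM in these relations was not tested further. At 8C *Obox6* ran from 460 to 999 FPKM in the eBE run and from 17.6 to 851 in the BE4 run, so its relation to the summed FPKM is given within each run only. It was r = 0.951 over the 14 embryos of the BE4 run (adjusted p = 4e-05; rho = 0.895, adjusted p = 0.00016; 0.901 without the 2 farthest) and r = 0.309 over the 14 of the eBE run (adjusted p = 0.392; rho = 0.209, adjusted p = 0.505; 0.232 without the 2 farthest). At 8C *Nr5a2* was not shown to follow *Obox6* in either run, with r = 0.248 in the eBE run (adjusted p = 0.392; rho = 0.349, adjusted p = 0.443; 0.005 without the 2 farthest) and 0.273 in the BE4 run (adjusted p = 0.392; rho = 0.196, adjusted p = 0.505; 0.433 without the 2 farthest). These were 4 relations, each over 14 embryos.

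**Figure D3:**
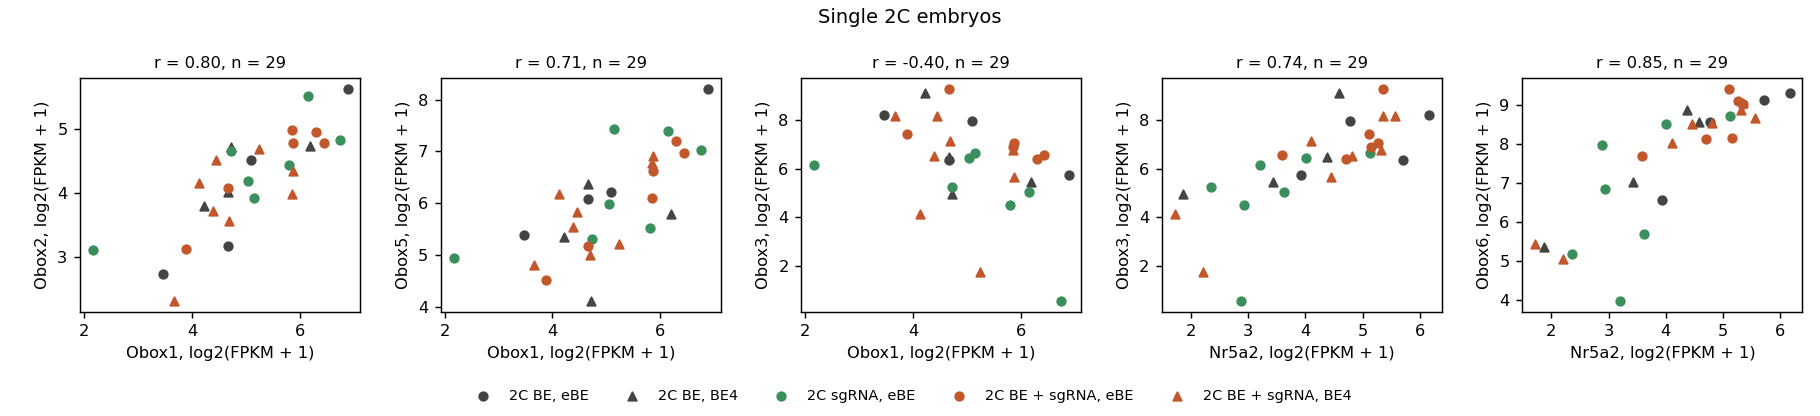
Single 2C embryos (points, n = 29) by the log2(FPKM + 1) of 2 genes per panel; colour gives the injection and shape the run. *Obox1* rises with *Obox2* and *Obox5* (r = 0.798 and 0.713) and not with *Obox3* (-0.395), and *Obox3* and *Obox6* rise with *Nr5a2*.

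Knockdown of *Nr5a2* at 2C left each member within the spread of the pools. The target had 19.4 and 24.3 FPKM in the NC pools and 2.72 and 6.13 in the KD pools, a difference of -2.14 ± 0.49 that was not called (adjusted p = 0.8903), with no overlap. *Obox3* had 247 and 438 FPKM in NC and 324 and 531 in KD, and *Obox6* 289 and 577 in NC and 514 and 584 in KD. Both pairs of ranges overlapped, with differences of 0.33 ± 0.44 and 0.42 ± 0.43. *Obox5* had 82.2 and 107 FPKM in NC and 71.7 and 84.4 in KD, *Obox1* 21.5 and 33.3 in NC and 22.5 and 29.6 in KD, and *Obox2* 12.3 and 21.1 in NC and 12.2 and 17.7 in KD. None of the 5 was called (adjusted p 0.910 to 0.984), none had an unadjusted p under 0.05, and 0.0167% of 11958 genes were called. The 2C burst list had 0 of 18 genes called.

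In 8C embryos, *Obox3* was higher after *Nr5a2* KD. It had 7.07 and 6.76 FPKM in the *Nr5a2* KD pools and 0 and 1.02 in the NC pools of that experiment. Both KD pools lay above every other 8C pool of the series, of which the next had 5.00. *Nr5a2* itself fell, from 48.8 and 50.2 FPKM to 9.65 and 12.8 (-2.06 ± 0.35, adjusted p = 0.01151). *Obox3* rose by 2.48 on the log2(FPKM + 1) scale (SE 0.47, adjusted p = 0.01903), the only member called among 5, where 2.75% of 10163 genes were called. Its level in the KD pools stayed far under the 247 to 531 FPKM of the 2C pools, and it passed the filter of a mean FPKM of 1 through the KD group and, at 1.36 and 1.06, the *Nr1h3* and *Nr2c2* KD groups. The call was lost when any 1 of the 4 pools was left out (1.97 to 2.98, adjusted p 0.07651 to 0.1761), with a pseudocount of 0.1 (4.39, adjusted p = 0.05687) and with other filters on low values (adjusted p = 0.06803 at a mean of 5 and 0.07853 with no filter).

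Against the *Rarg*, *Nr1h3* and *Nr2c2* KD pools, which use no NC library, *Obox3* was also higher. It had 0.375 and 0.830 FPKM after *Rarg* KD, 0.831 and 1.89 after *Nr1h3* KD, and 0.508 and 1.62 after *Nr2c2* KD, all under the *Nr5a2* KD pools. The difference was 2.03 ± 0.39 (adjusted p = 0.01523), with 3.95% of genes called, and was 2.85 with a pseudocount of 0.1 (adjusted p = 0.09949). Without *Nr5a2* KD replicate 1 or 2 or *Nr1h3* KD replicate 2 it was not called (adjusted p 0.0613 to 0.0953). Neither *Rarg*, *Nr1h3* nor *Nr2c2* KD moved a member past the threshold against NC (15 values, adjusted p 0.930 to 1), with 0.00984%, 0.00984% and 0.0787% of genes called and no member at an unadjusted p under 0.05.

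The other members did not follow *Obox3* in *Nr5a2* KD. *Obox6* had 205 and 727 FPKM after KD and 361 and 574 in NC, so the KD pools lay on both sides of the NC pools (-0.24 ± 0.48, adjusted p = 0.8493). *Obox5* was listed at 0 in both KD pools and had 0 and 0.522 in NC. *Obox1* had 0.238 and 1.52 FPKM in KD and 0 and 1.25 in NC, and *Obox2* 0.266 and 0.451 in KD and 0.184 and 2.14 in NC. The 2C burst list had 0 of 12 genes called against NC and a median of 0.28 beside -0.22 for all genes. Of 10 other homeobox genes 2 fell, *Crxos* (-2.42, adjusted p = 0.01762) and *Nanog* (-3.14, adjusted p = 0.002428), the second named after its value was seen, and 8 were not called.

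With the combined siRNAs no *Obox3* difference was called. In the 4KD experiment *Obox3* had 5.00 and 3.84 FPKM in the 8C 4KD pools and was listed at 0 in both 8C NC pools. The groups did not overlap, yet the difference of 2.43 had an SE of 1.44 in this experiment and was not called (adjusted p = 0.8064, 0% of 10476 genes called, 784 at an unadjusted p under 0.05). At 4C it had 13.4 and 4.06 FPKM in 4KD and 49.7 and 0 in NC, so that both 4KD pools lay between the NC pools (0.26 ± 1.44, adjusted p = 0.9961). The stage by 4KD interaction for *Obox3* was 2.17 ± 2.03 (adjusted p = 0.9999, with 0% of genes called and 259 at an unadjusted p under 0.05). *Nr5a2* had 3.90 and 6.91 FPKM in the 8C 4KD pools against 27.1 and 30.3 in NC (-2.25 ± 0.62, adjusted p = 0.38). *Obox6* had 1224 and 1303 in 4KD and 1094 and 1120 in NC (0.19 ± 0.38, adjusted p = 0.9816). At 4C *Obox6* had 976 and 2056 FPKM in 4KD and 1067 and 1395 in NC, and no member was called at either stage (0% of genes at 4C, with 610 at an unadjusted p under 0.05).

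In the 3KD experiment *Obox3* was listed at 0 in both pools without *Nr5a2* siRNA. It had 0.219 and 4.54 FPKM in the pools without *Rarg* siRNA, 0 and 0.189 in those without *Nr1h3* siRNA, 0 and 2.50 in those without *Nr2c2* siRNA, and 0 and 1.30 in NC. Pools of 1 group thus differed as much as groups did. The difference between the 6 pools with *Nr5a2* siRNA and the 2 without was 0.80 ± 0.63 (adjusted p = 0.7403), while *Nr5a2* fell (-2.50 ± 0.42, adjusted p = 0.03592) and 0.282% of 10626 genes were called. *Obox3* reached the filter mean of 1 FPKM only in the groups without *Rarg* siRNA (2.38) and without *Nr2c2* siRNA (1.25). Both groups received *Nr5a2* siRNA, so the gene entered this test through the side where it was higher. *Obox6* ran from 768 to 1330 FPKM in the 6 pools and had 1059 and 1206 in the 2 (-0.15 ± 0.38, adjusted p = 0.9402). Against NC, no member was called in any of the 4 triple KD groups (20 values, adjusted p 0.955 to 1, none at an unadjusted p under 0.05), with 0%, 0.0565%, 0.00941% and 0% of genes called for the groups without *Nr5a2*, *Rarg*, *Nr1h3* and *Nr2c2* siRNA. These 4 comparisons share their NC pools, as do those of the single KDs.

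Over all 24 8C pools, *Obox3* reached 3 FPKM in 5 of the 10 that received *Nr5a2* siRNA and in 0 of the 14 that did not. The limit of 3 FPKM was not a planned setting. At 1 FPKM, the level used in the filter, the numbers were 6 of 10 and 4 of 14. In a fit of all 24 pools with the experiment as a term, chosen after these values were seen, *Obox3* was higher by 1.41 ± 0.32 with *Nr5a2* siRNA (adjusted p = 0.002463), and *Obox1*, *Obox2*, *Obox5* and *Obox6* differed by -0.27 to -0.11 and were not called (adjusted p 0.574 to 0.795). In that fit 2049 of 11290 genes were called. It reuses the pools compared above, so it is not a separate test of them. *Obox6* lay lower in the single KD experiment (205 to 785 FPKM) than in most pools of the 4KD and 3KD experiments (591 to 1330), also in NC pools (361 and 574 against 591 to 1217), so tests of its knockdowns were made within experiments, apart from the fit of all 24 pools, which has the experiment as a term.

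**Figure D4:**
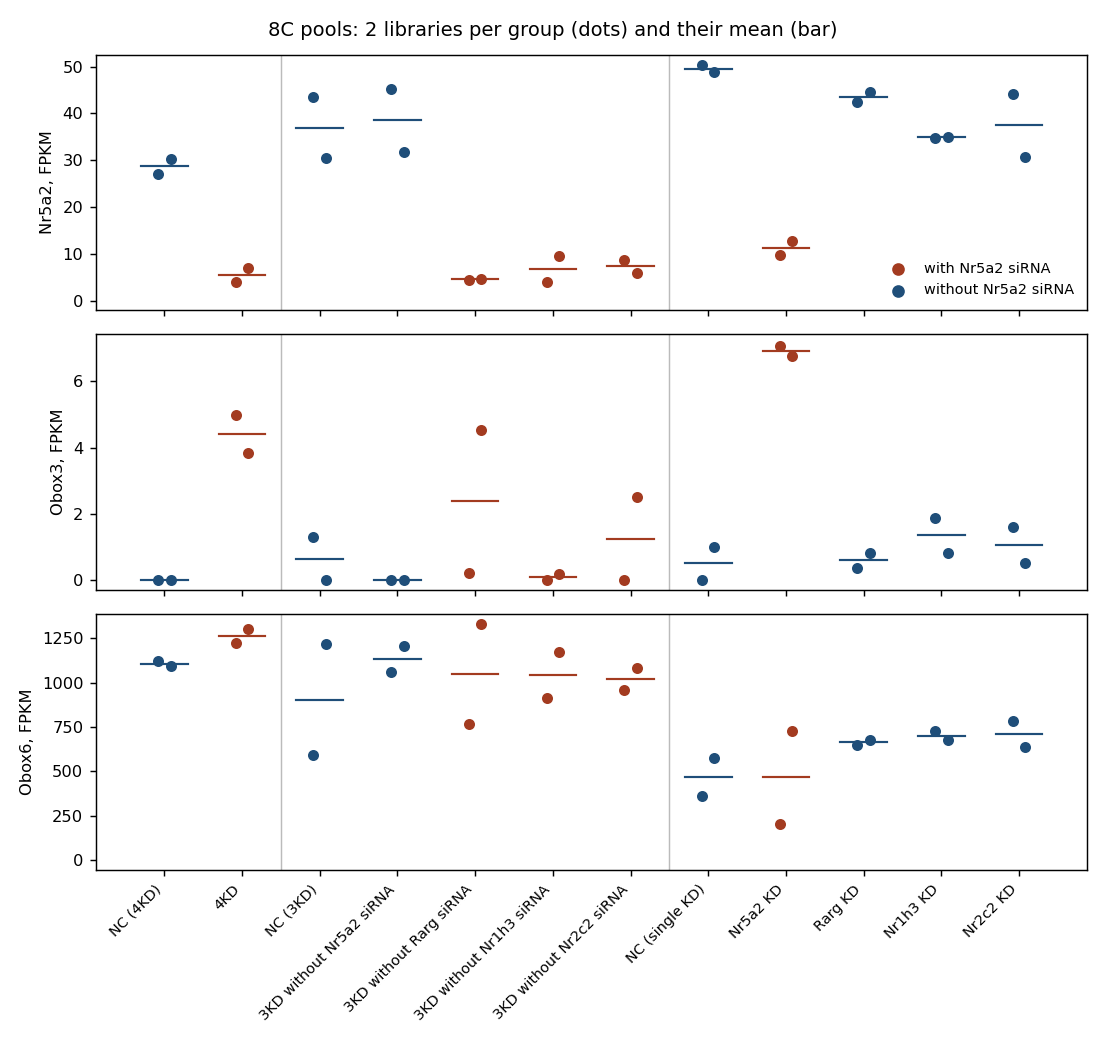
FPKM of *Nr5a2*, *Obox3* and *Obox6* in the 24 pools of 8C embryos, with the 3 experiments divided by grey lines; points are libraries, bars are group means, and red marks groups with *Nr5a2* siRNA. *Obox3* is above 3 FPKM, a limit that was not planned, in 5 red points and in no blue point. It is at 1 FPKM or more in 6 red and 4 blue points. *Obox6* shows no such division.

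Base editing of *Nr5a2* moved no member past the threshold. At 2C, *Obox3* had a median of 113 FPKM in the 14 BE + sgRNA embryos (2.34 to 620), 84.9 in the 8 BE embryos (30.3 to 554) and 34.1 in the 8 sgRNA embryos (0.474 to 99.0). The 3 ranges overlapped. Against the mean of both controls the difference was 0.93 ± 0.63 (adjusted p = 0.5684), and between BE and sgRNA it was 2.31 ± 0.87 (p = 0.01182, adjusted p = 0.5796). Without the sgRNA embryo named 4-cell these were 0.70 (adjusted p = 0.6454) and 1.84 (p = 0.03921, adjusted p = 0.7233). *Obox6* had a median of 367 FPKM in BE + sgRNA (32.4 to 681), 380 in BE (39.7 to 634) and 121 in sgRNA (14.7 to 419), with differences of 0.79 ± 0.50 (adjusted p = 0.5359) against both controls and 1.19 ± 0.68 between the controls. *Obox1*, *Obox2* and *Obox5* had medians of 30.8, 18.1 and 61.8 FPKM in BE + sgRNA and differed from the controls by -0.03 to 0.27. Without that embryo *Obox1*, *Obox2*, *Obox5* and *Obox6* differed by 0.04, -0.13, -0.17 and 0.81 from the controls and by -0.13, -0.21, -0.30 and 1.23 between them, none called. None of the 5 was called, where 0.00805% of 12420 genes were called against the controls and 0% between them (984 at an unadjusted p under 0.05). The BE4 run held no sgRNA embryo at 2C, so within it only BE could serve as control.

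At 8C, *Obox3* was listed at 0 in 6 of the 14 BE + sgRNA embryos and in 14 of the 16 controls. The highest were both embryos named 4-cell, with 205 and 10.5 FPKM, and 1 embryo of the BE4 run with 11.8. Their levels lay above those of every other 8C library, and the difference was 1.09 ± 0.54 with them (p = 0.04987, adjusted p = 0.4605). Without the embryos named 4-cell it was 0.37 (adjusted p = 0.8646). *Obox5* had a median of 1.23 FPKM in BE + sgRNA (0 to 13.5), 0.522 in BE and 0.140 in sgRNA, with a difference of 0.82 ± 0.31 (p = 0.01134, adjusted p = 0.3042). The highest *Obox2* value, 18.3 FPKM, was in BE + sgRNA replicate 8, the library with the lowest summed FPKM (83392), where *Obox6* had 17.6. *Obox1* and *Obox2* differed by 0.54 ± 0.25 and 0.62 ± 0.29 (adjusted p = 0.4226 and 0.4343). Thus 4 of 5 members had an unadjusted p under 0.05, as had 1058 of 9760 genes, and none was called, where 0.164% of genes were. *Obox2*, *Obox5* and *Obox3* reached the filter mean of 1 FPKM only in BE + sgRNA (2.74, 2.72 and 16.4). They thus entered the test through the group where they were highest. Without the 2 embryos named 4-cell, *Obox5* alone had an unadjusted p under 0.05 (0.75 ± 0.32, p = 0.02388, adjusted p = 0.5821). *Obox1* and *Obox2* then differed by 0.42 (p = 0.1125) and 0.50 (p = 0.1044), and 0 of 9629 genes were called in that limma fit, with 711 at an unadjusted p under 0.05. *Gdf9*, an oocyte growth factor, was the only gene of the 3 lists called with all embryos (1.84 ± 0.38, adjusted p = 0.04586).

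*Obox6* at 8C differed more between the controls than with editing. It had 420 to 999 FPKM in the 8 BE embryos, 112 to 697 in the 8 sgRNA embryos and 17.6 to 1557 in the BE + sgRNA embryos, or to 970 without the 2 named 4-cell (1140 and 1557). Within the eBE run it ran from 778 to 999 in 4 BE embryos and from 460 to 697 in 4 sgRNA embryos, and within the BE4 run from 420 to 851 and from 112 to 156, so the controls did not overlap in either run. The summed FPKM of the libraries ran from 413397 to 467792 in the BE and from 207918 to 268257 in the sgRNA embryos of the BE4 run, and from 427105 to 474480 and from 428014 to 466564 in the eBE run. Its part in the difference was not tested. The difference between BE and sgRNA was 1.37 ± 0.59 (p = 0.02554, adjusted p = 0.593; 0% of genes called, 775 at an unadjusted p under 0.05), and that of BE + sgRNA against both was 0.14 ± 0.43 (adjusted p = 0.9458), or -0.11 ± 0.44 without the embryos named 4-cell (adjusted p = 0.975). *Nr5a2* RNA was not lower with editing, at a median of 47.9 FPKM in BE + sgRNA, 47.5 in BE and 41.8 in sgRNA, and the edit in the reads was not analysed here. The stage by base editing interaction was not called for any member (-0.65 to 0.75, adjusted p 0.653 to 0.969), where 0.0385% of 12991 genes were called. Without the 3 embryos named 4-cell it ran from -0.92 for *Obox6* to 0.92 for *Obox5*, and was -0.34 for *Obox3*, none called (adjusted p 0.4686 to 0.8752).

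**Figure D5:**
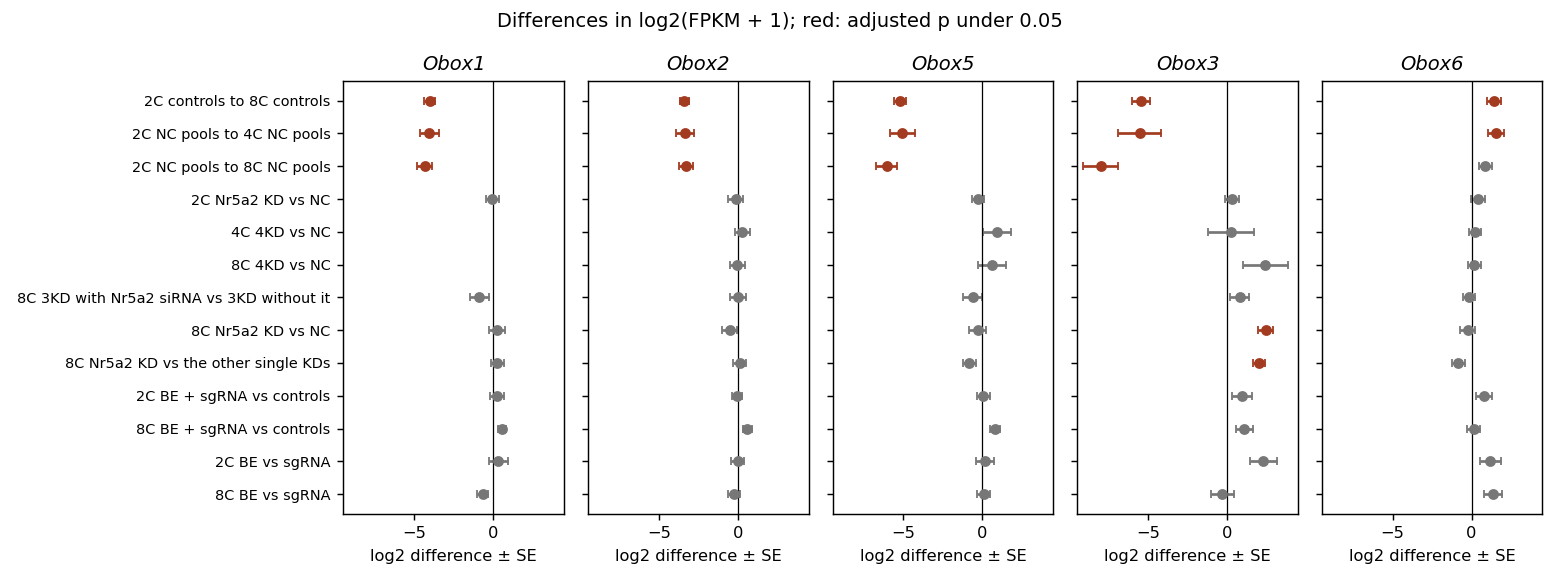
Difference in log2(FPKM + 1) with its SE for each member (columns) in 13 comparisons (rows); red marks an adjusted p under 0.05, and a missing point is a gene that did not pass the filter. The 3 stage comparisons hold all red points of *Obox1*, *Obox2* and *Obox5*, 2 of them hold those of *Obox6*, and *Obox3* also has red points for 8C *Nr5a2* KD against NC and against the other single KDs.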

How the data were processed

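RNA was measured in 92 libraries with an FPKM file; 21 of the 113 listed samples were not analysed here. Per the methods, the authors aligned reads to mm9 by TopHat 2.1.1, and Cufflinks 2.2.1 with UCSC refFlat gave the FPKM they deposited. How reads with several matches were shared is not given in the sources used here. FPKM hold no counts, so no interval or limit of detection is given.

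Each experiment was fitted with limma 3.58.1 (R 4.3.3, trend) on log2(FPKM + 1), over genes whose mean reached 1 FPKM in some group; calls needed an adjusted p under 0.05 (Benjamini-Hochberg, two-sided). Differences understate those of low genes. An exact permutation test of 2 against 2 libraries cannot go below p = 0.333. BE + sgRNA was set against the mean of BE and sgRNA. The code was tested on simulated data. The members, lists and comparisons were chosen with earlier results of these data known. Named genes were the members, other Obox genes, *Nr5a2*, at most the 4 most abundant genes of a list and the 5 genes most like a member. The eBE and BE4 runs were read from column names, or from library numbers where no editor was named. Correlations used two-sided permutations (scipy 1.17.1). Alternatives were the pseudocount, filters, scaling, replicate block, groups fitted, controls, runs, left-out libraries and the methods' limits (adjusted p under 0.01, log2 fold of at least 2). Sequences came from RefSeq and GENCODE M1.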

Additional observations from a re-analysis of the deposited data

Results flagged for a closer look

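*Obox3* in 1 embryo of each 8C control group stood apart from the other 7, by a gap of the whole range of the group. In the 8C BE embryos, replicate 4 had 0.229 FPKM and the other 7 were listed at 0. In the 8C sgRNA embryos, replicate 7 had 5.09 FPKM and the other 7 were listed at 0. Both belong to the BE4 run, and the first value is close to the lowest above 0 in any library (0.184 FPKM). Of 20 sets of 4 to 10 libraries of 1 group and member looked at in this way, these 2 stood out. With the other 7 at 0, any value above 0 gives a gap of the whole range. The flags thus follow from the zeros, and the usual chance rate of about 1 in 20 does not apply to them.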

How the results depend on the processing

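The falls of *Obox1*, *Obox2*, *Obox5* and *Obox3* from 2C to 8C kept their direction and call in all 13 alternatives for the control embryos and all 16 for the NC pools. *Obox6* from 2C to 8C in the control embryos was not called after quantile normalization (0.39) or at the methods' limits (1.42, under the fold limit). Nor was it called in the BE4 run (0.64), where 2C held BE embryos only and 8C both controls. The number of members called was 0 in place of 1 for 8C *Nr5a2* KD against NC with a pseudocount of 0.1, no filter, a mean FPKM of at least 5 or the methods' limits (*Obox3* 4.39, 2.48, 2.48 and 2.48), and 0 to 0 without 1 pool (*Obox3* 1.97 to 2.98). Against the other single KDs it was 0 in the same settings and 0 to 2 without 1 pool. From the 2C to the 4C NC pools it was 3 in place of 5 with a pseudocount of 0.1, the methods' limits or only the groups compared, and 3 to 4 without 1 pool. The cause was not tested, apart from the smaller number of libraries or stricter limits that these settings bring by construction.

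Differences that were not called changed sign as follows. *Obox6* was -0.34 from the 2C to the 8C NC pools after quantile normalization, and 0.0769 in 8C *Nr5a2* KD against NC after median-ratio scaling. Without 1 pool it ran from -1.15 to 0.67 in that comparison, from -1.75 to 0.078 against the other single KDs (called without *Nr5a2* KD replicate 2, adjusted p = 0.03244), from -0.0759 to 0.92 in 2C *Nr5a2* KD and from -0.32 to 0.75 in 4C 4KD. For 8C BE + sgRNA it was -0.11 with the run as a term and without the embryos named 4-cell, -0.44 in the BE4 run and -0.55 with BE alone as control. *Obox3* ran from -0.0776 to 0.74 in 2C *Nr5a2* KD without 1 pool, and was -0.47 in the BE4 run and -0.22 with BE alone as control for 2C BE + sgRNA.

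Libraries of a group share only a replicate number with those of other groups. Same-numbered pools deviated together across genes in the 3KD experiment (r = 0.268 to 0.497), and less so in the single KD (-0.041 to 0.139) and 2C (0.004) experiments. With the replicate block the members called changed in 1 of 24 comparisons, the 2C to 4C NC pools, where *Obox6* was lost (1.58, adjusted p = 0.05625), while the genes called for 3KD with against without *Nr5a2* siRNA went from 30 to 262, and those against NC from 0, 6, 1 and 0 to 0, 45, 35 and 65. In the 4KD experiment r ran from -0.283 to 0.332, and crossed numbers, chosen after seeing the data, gave 7, 0 and 0 genes for 4C to 8C in NC, in 4KD and for their interaction.

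Median-ratio scaling moved the median of all genes from -0.31 to -0.49 and quantile normalization to -0.0052 for 2C to 8C. The split of higher and lower calls was 3753 and 5668, and 4540 and 4341 after quantile normalization. For 8C *Nr5a2* KD against NC it was 36 and 243, and 94 and 207 after median-ratio scaling; against the other single KDs it was 80 and 321, and 219 and 358. All genes called in these 2 comparisons were 279 and 401, against 113 and 228 with no filter and 70 and 101 at the methods' limits. Depth is known only in relative terms, so an *Obox* gene listed at 0 was not detected at this depth and may still be present.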
